A study of Mus musculus with 6 samples.

Results

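The vessel wall, its endothelium above all, helps to set where blood clots, with proteins that start clotting, hold it back or dissolve the clot. The genes described here are 9 genes of this system, not all of them endothelial: the procoagulant genes *F3*, *F8* and *Vwf*, the anticoagulant genes *Thbd*, *Procr*, *Proc* and *Tfpi*, and the plasminogen activators *Plat* and *Plau*. They were chosen by gene symbol, for their known roles, and all 9 were found among the 23183 symbols of the deposited tables. They were measured by RNA sequencing of microvessels isolated from mouse brain, with 3 WT and 3 TEKCRIF1 KO libraries of 1 mouse each. Both groups carry TEK-cre, a Cre recombinase driven by the promoter of the endothelial receptor gene *Tek*. WT mice are *Crif1*+/+ and KO mice are *Crif1* flox/flox, so the groups differ in the *Crif1* allele and not in the Cre. The labels give C57BL/6 for both groups and no treatment, and the age of these mice is not given in the sources used here. *Crif1* (*Gadd45gip1*) encodes a protein of the mitochondrial ribosome, and the comparison asks how its loss from endothelial cells changes the microvessels. Cre lines driven by *Tek* also recombine in blood-forming cells, and a microvessel preparation holds pericytes, smooth muscle, astrocyte endfeet and other cells beside the endothelium. In such bulk RNA, fewer cells of a type and less RNA per cell cannot be told apart.

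Clotting begins when tissue factor, the product of *F3*, binds factor VII. Tissue factor is made mainly by cells around the vessel, in the brain above all by astrocytes, and the Kunitz-type inhibitor encoded by *Tfpi* blocks it. Factor VIII, from *F8*, is carried in plasma by von Willebrand factor, the product of *Vwf*, which endothelial cells store in Weibel-Palade bodies and which tethers platelets. Thrombomodulin (*Thbd*) binds thrombin and turns it from cleaving fibrinogen to activating protein C (*Proc*), which the endothelial protein C receptor (*Procr*) presents to it. Tissue plasminogen activator (*Plat*) and urokinase (*Plau*) convert plasminogen to plasmin, which dissolves fibrin.

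*F3* and *Tfpi*, the initiator of clotting and its inhibitor, were neighbors in the order of levels below, so the bases in front of both genes are shown. The reference table holds windows for 4 of the 9 genes (*F3*, *Tfpi*, *Procr* and *F8*). The sequences are from RefSeq on build GRCm38.p6, written 5′ to 3′ on the strand of the gene and ending at the base before the annotated start. The window of *F3* is chr3:121723287-121723536 on the plus strand and that of *Tfpi* is chr2:84476776-84477009 on the minus strand. Capitals mark matches, on either strand, to a GC box (GGGCGG), an AP-1 site (TGANTCA) or a TATA box (TATAAA).

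F3: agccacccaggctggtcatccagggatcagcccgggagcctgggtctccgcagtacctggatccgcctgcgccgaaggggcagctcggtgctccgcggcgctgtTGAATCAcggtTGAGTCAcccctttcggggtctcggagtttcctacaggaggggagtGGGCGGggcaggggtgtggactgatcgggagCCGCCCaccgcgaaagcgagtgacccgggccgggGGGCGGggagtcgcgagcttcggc

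Tfpi: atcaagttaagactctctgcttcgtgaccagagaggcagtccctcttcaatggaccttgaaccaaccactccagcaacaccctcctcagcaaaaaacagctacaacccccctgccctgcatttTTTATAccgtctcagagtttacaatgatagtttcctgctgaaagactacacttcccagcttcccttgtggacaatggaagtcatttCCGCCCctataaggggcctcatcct

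The 250 bases before *F3* had a GC content of 70.0% with 24 CpG dinucleotides, against a median of 52.4% and 6 CpG over the 32851 windows of that length. They held 3 GC box and 2 AP-1 letter matches, and no TATA box match. The 234 bases before *Tfpi* had a GC content of 48.7% with 3 CpG dinucleotides. They held 1 GC box match, 1 match to the TATA box letters and no AP-1 match. The TATA box letters lie on the other strand, starting 111 bases before the window end. A GC box is found in 32.7% of all windows, an AP-1 match in 6.75% and a TATA box in 12.4%. The letters CACGTG (an E-box) and CCGGAA (an ETS core) were also searched and matched neither gene, where 6.02% and 12% of all windows hold them. The marked matches do not overlap each other. Such matches describe the sequence and are not evidence of binding.

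The authors deposited FPKM values, fragment counts scaled by the length of the transcript and the reads of the library, so that levels can be compared between genes. The spacing of the smallest values put the depth at about 6.4 M to 11.7 M fragments per library. The check of the labels held, since *Gadd45gip1* had 18.8, 15.3 and 16.5 FPKM in the WT libraries, always listed here in the order 1, 2, 3, against 10.8, 7.54 and 10.4 FPKM in the KO libraries, with no overlap (log2 fold change −0.77, limma adjusted p = 0.841, exact permutation p = 0.1). The endothelial markers (*Pecam1*, *Cdh5*, *Cldn5*, *Flt1*, *Kdr*, *Tek*, *Tie1*, *Slco1a4*) summed to between 819 and 1126 FPKM in WT libraries and between 735 and 935 in KO libraries, and none was at 0. Among them *Cdh5*, the gene of VE-cadherin, was lower in every KO library than in every WT library (mean 43.8 against 90.1 FPKM). KO was compared with WT on log2(FPKM + 1) with limma over the 14247 genes whose mean reached 1 FPKM, and p-values were adjusted over all of them. With 3 mice against 3, the smallest p of an exact permutation test is 0.1.

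The 9 genes ranged in level from the upper percentiles of the genes tested to a gene listed at 0 in 5 of 6 libraries. *Thbd*, *Vwf* and *Plat* formed the upper level, with means over the 6 libraries of 64.6, 62.5 and 58.5 FPKM, and in WT mice they lay at percentiles 94.5, 94.0 and 93.4 of the genes tested. Their order was not fixed. *Thbd* exceeded *Vwf* in 3 of 6 libraries, and *Vwf* exceeded *Plat* in 4 of 6. *Tfpi* (25.4 FPKM) and *F3* (18.9 FPKM) followed, and *Tfpi* was the higher in 5 of 6 libraries, with WT 3 the exception. *Procr* came next at 8.59 FPKM, and below it the levels dropped to 1.44 FPKM for *Plau*, 0.541 for *F8* and 0.0850 for *Proc*. From *F3* down, every gene exceeded the next in all 6 libraries, as *Plat* did *Tfpi*. *F8* and *Proc* were under the mean of 1 FPKM and were not tested, so 7 of the 9 genes entered the fit.

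**Figure D1:**
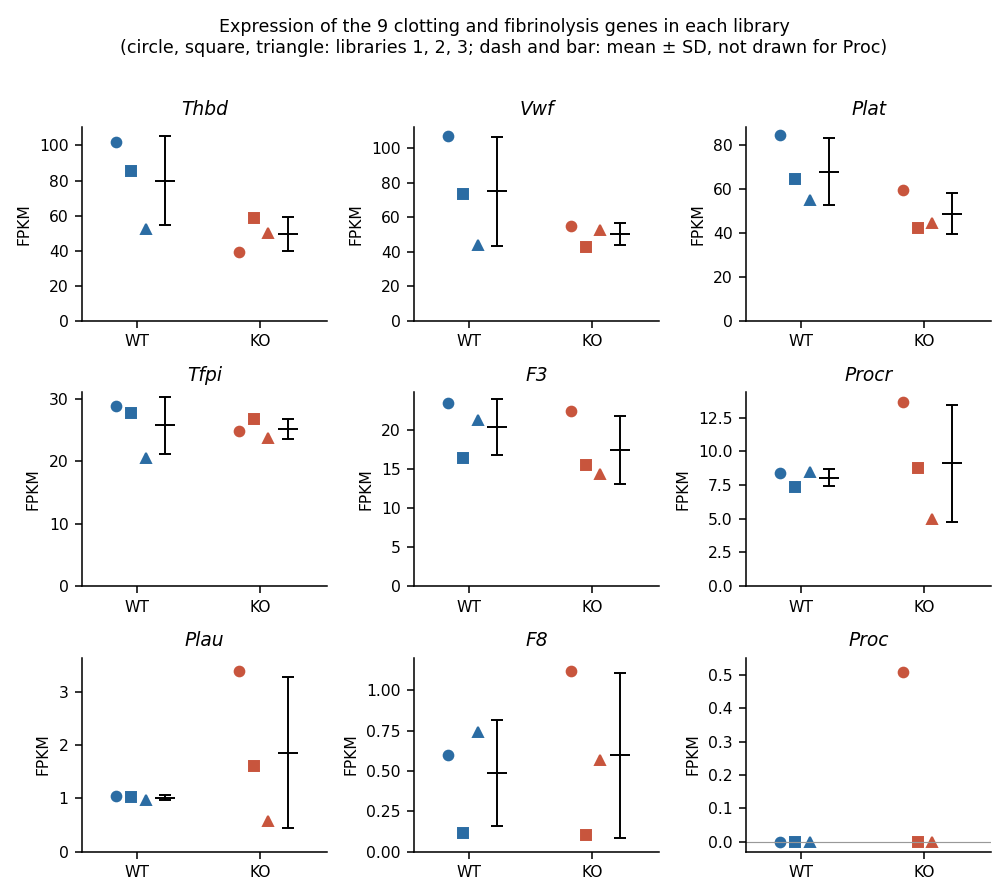
FPKM of each gene (vertical axes, linear, each with its own scale) in the 3 WT libraries (blue) and the 3 KO libraries (red), with the mean and SD of each group in black except for *Proc*. WT 1 is the highest point for *Thbd*, *Vwf*, *Plat*, *Tfpi* and *F3*, KO 1 is the highest for the other 4 genes, and in the panel of *Proc* the other 5 libraries are listed at 0.

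Of the procoagulant genes, none passed the adjusted test. *Vwf* (chr6:125546774-125686679, plus strand, with 52 exons in its longest coding transcript) had 107, 73.7 and 44.1 FPKM in the WT libraries, against 55.0, 42.8 and 52.4 FPKM in the KO libraries. WT 1 and WT 2 lay above every KO library, and WT 3 lay among them. From a WT mean of 74.96 ± 31.5 FPKM the level differed to a KO mean of 50.05 ± 6.42 FPKM (SD of 3 libraries), which is 66.8% of the former. The log2 fold change was −0.49 (standard error 0.30, 95% confidence interval −1.16 to 0.17; limma adjusted p = 0.848, exact permutation p = 0.3). The difference was smaller than the SD of the WT libraries, whose values spread 2.43-fold, against 1.28-fold in KO mice. The mean of the 8 endothelial markers on the log2 scale deviated by 0.25, 0.19 and −0.10 from its mean over all libraries in WT 1, WT 2 and WT 3, though single markers did not all follow it (*Cdh5* had 86.7, 92.4 and 91.3 FPKM there). When each library was scaled to these markers, the log2 fold change of *Vwf* was −0.27, of *Thbd* −0.42 and of *Plat* −0.24, against −0.49, −0.65 and −0.46 without it. Scaling to the markers other than *Cdh5* gave −0.38, −0.54 and −0.35.

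*F3* (chr3:121723537-121735048, plus strand, 6 exons) had 23.4, 16.4 and 21.3 FPKM in the WT libraries, against 22.4, 15.6 and 14.3 FPKM in the KO libraries. KO 1 was level with the upper WT libraries, and KO 2 and KO 3 were under WT 2, the lowest of the WT libraries. The means were 20.4 ± 3.58 (WT) and 17.4 ± 4.36 FPKM (KO, SD of 3 libraries), closer than either SD, with a log2 fold change of −0.22 (95% confidence interval −0.75 to 0.30; limma adjusted p = 0.921, exact permutation p = 0.4). It was −0.41 without KO 1, when the groups lay apart as they did in 17.8% of all genes tested, and −0.12 without WT 1 and −0.10 without KO 3. The astrocyte markers (*Aqp4*, *Gfap*, *Slc1a2*, *Slc1a3*, *Aldh1l1*) summed to between 294 and 409 FPKM in WT libraries and between 247 and 289 in KO libraries. All 5 had a negative log2 fold change, 1 of them with an unadjusted p under 0.05 (*Gfap*), and their part in the level of *F3* was not tested. *F8* (chrX:75172715-75382615, minus strand, 26 exons) had 0.600, 0.117 and 0.743 FPKM in the WT libraries, against 1.12, 0.101 and 0.570 FPKM in the KO libraries. WT 2 and KO 2 were the low libraries, at about 10.1 and 6.3 fragments on the longest coding transcript of 9784 bases, and the other libraries had about 65.3 to 86.3. The *F8* locus overlaps *Fundc2* on the other strand, which was at 11.7 to 19.6 FPKM, and how strand was used in counting is not given in the sources used here.

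Among the anticoagulant genes, *Thbd* had the log2 fold change farthest from 0 of the 7 genes tested and the only unadjusted p under 0.05. *Thbd* (chr2:148404466-148408188, minus strand) consists of a single exon and a single annotated transcript of 3723 bases. Its values were 102, 85.6 and 52.3 FPKM in the WT libraries, against 39.4, 58.5 and 50.04 FPKM in the KO libraries. The WT and KO values overlapped through WT 3, which lay under KO 2. The KO mean of 49.3 ± 9.58 FPKM was 61.7% of the WT mean of 79.95 ± 25.3 FPKM (SD of 3 libraries). The log2 fold change was −0.65 (standard error 0.27, 95% confidence interval −1.26 to −0.05; limma p = 0.0374 before adjustment, adjusted p = 0.841, exact permutation p = 0.2). The difference in means was larger than the SD of either group. It did not pass adjustment over all genes tested.

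*Procr* (chr2:155751117-155755471, plus strand, 4 exons) behaved otherwise, with close values in WT mice and scattered ones in KO mice. It had 8.37, 7.34 and 8.45 FPKM in the WT libraries, against 13.7, 8.75 and 4.99 FPKM in the KO libraries. KO 1 lay above all WT libraries and KO 3 below all of them. The means were 8.05 ± 0.619 (WT) and 9.13 ± 4.35 FPKM (KO, SD of 3 libraries), with a log2 fold change of 0.07 (95% confidence interval −0.63 to 0.77; limma adjusted p = 0.985, exact permutation p = 0.8). *Thbd* was 12.2, 11.7 and 6.19 times *Procr* in the WT libraries, against 2.89, 6.69 and 10.04 times in the KO libraries, and the groups overlapped (exact permutation p = 0.3).

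*Tfpi* (chr2:84432855-84476775, minus strand, 8 exons) had the smallest relative spread in KO mice of the 7 genes tested (coefficient of variation 6.37%). It had 28.8, 27.7 and 20.5 FPKM in the WT libraries, against 24.8, 26.8 and 23.6 FPKM in the KO libraries. All KO values lay inside the WT range. The means were 25.7 ± 4.52 (WT) and 25.1 ± 1.596 FPKM (KO, SD of 3 libraries), with a log2 fold change of −0.02 (95% confidence interval −0.48 to 0.43; limma adjusted p = 0.993, exact permutation p = 0.9), an interval that holds changes between 0.72-fold and 1.35-fold. The ratio of *Tfpi* to *F3* was 1.23, 1.69 and 0.965 in the WT libraries, against 1.11, 1.72 and 1.65 in the KO libraries, and the groups overlapped (exact permutation p = 0.6). *Proc* (chr18:32123126-32139570, minus strand, 9 exons), made chiefly by the liver, was listed at 0 in WT 1, WT 2, WT 3, KO 2 and KO 3 and at 0.510 FPKM in KO 1, which corresponds to about 6.3 fragments. A count of 3 fragments on its transcript would be 0.163 to 0.298 FPKM in these libraries, and no fold is given.

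The plasminogen activators differed in level by more than an order of magnitude in every library, *Plat* being 17.6 to 80.5 times *Plau*. *Plat* (chr8:22757727-22782844, plus strand, 14 exons) had 84.8, 64.5 and 54.9 FPKM in the WT libraries, against 59.8, 42.1 and 44.8 FPKM in the KO libraries. WT 1 and WT 2 lay above all KO libraries, and the overlap rested on KO 1, which lay above WT 3. The KO mean of 48.9 ± 9.52 FPKM was 71.9% of the WT mean of 68.1 ± 15.2 FPKM (SD of 3 libraries), and the difference was larger than either SD. The log2 fold change was −0.46 (standard error 0.23, 95% confidence interval −0.98 to 0.05; limma p = 0.0722 before adjustment, adjusted p = 0.841, exact permutation p = 0.2).

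*Plau* (chr14:20836660-20843385, plus strand, 11 exons) was near 1 FPKM in all WT libraries, at 1.053, 1.02 and 0.973, and spread to 3.40, 1.6 and 0.583 FPKM in the KO libraries. KO 1 and KO 2 lay above the WT libraries and KO 3 below them. On its longest coding transcript of 2342 bases these values correspond to about 28, 21 and 26 fragments in the WT libraries and 62.9, 24 and 16 in the KO libraries. The log2 fold change was 0.38 (95% confidence interval −0.57 to 1.34; limma adjusted p = 0.929, exact permutation p = 0.5). The spread within KO mice was 5.84-fold for *Plau* and 2.74-fold for *Procr*, against 1.08-fold and 1.15-fold in WT mice. The 2 genes stood in the same order in the KO mice, KO 1 the highest and KO 3 the lowest, and their Pearson correlation over the 6 libraries was 0.93, given as a description of 6 points that share library and depth. The smooth muscle markers summed to 754, 257 and 381 FPKM in KO 1, KO 2 and KO 3 and the oligodendrocyte markers to 310, 235 and 109 FPKM, and their part in these values was not tested.

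Of the 7 genes tested, 1 (*Thbd*) had an unadjusted p under 0.05, where 5.88% of all genes tested (838 of 14247) did. It was lower in KO mice, as were 3.11% of all genes tested at that p. After adjustment by limma 0 of the 7 passed, as did 0.0% of all genes tested, where the smallest adjusted p was 0.841. In 5 of the 7 genes (*Thbd*, *Vwf*, *Plat*, *F3*, *Tfpi*) the log2 fold change was under 0, against 50.8% of all genes tested, and in *Procr* and *Plau* it was above 0. The median was −0.22 for the 7 genes and −0.01 for all genes tested. In 0 of the 7 did the WT and KO values lie apart, against 11.1% of all genes tested.

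**Figure D2:**
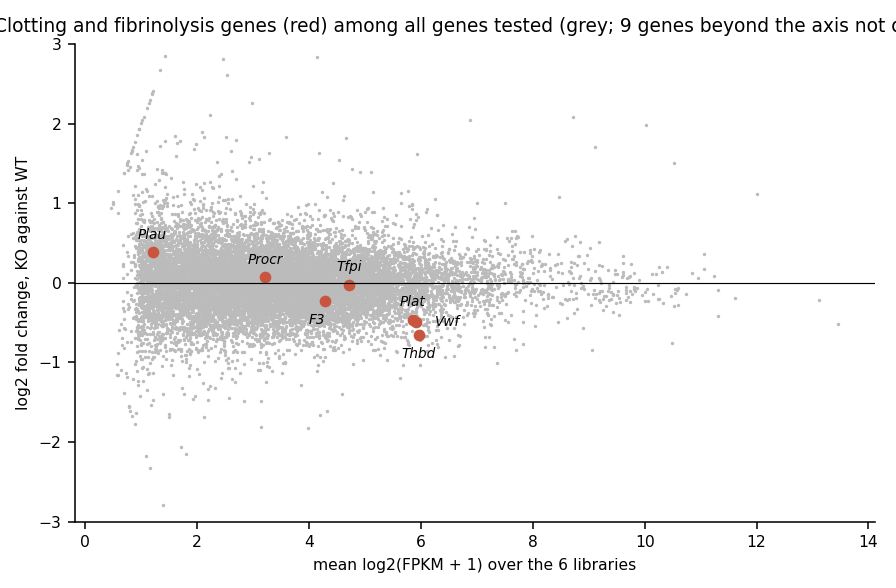
Log2 fold change of KO against WT (vertical axis) against the mean log2(FPKM + 1) over the 6 libraries (horizontal axis) for the genes tested (grey points, with 9 beyond the axis not drawn) and the 7 tested clotting and fibrinolysis genes (red points). *Thbd*, *Vwf* and *Plat* sit together at high level with log2 fold changes of −0.65, −0.49 and −0.46, and *Tfpi* and *Procr* sit at −0.02 and 0.07.

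The other genes of the system were taken from 7 lists with 54 symbols, of which 53 were found and 27 were tested. Among these, 14 had a log2 fold change under 0 and 13 above 0, with a median of −0.03, and 1 had an unadjusted p under 0.05 (again beside 5.88% of all genes tested) while 0 passed adjustment by limma. That gene was *Serpind1*, which encodes heparin cofactor II, a thrombin inhibitor. It had 29.2, 32.2 and 17.5 FPKM in the WT libraries, against 15.4, 15.02 and 19.2 FPKM in the KO libraries, overlapping, as *Thbd* did, through WT 3. The change on the log2 scale came to −0.60 (standard error 0.25, limma p = 0.0391 before adjustment, adjusted p = 0.841, exact permutation p = 0.2). The unadjusted p was above 0.05 without WT 1, WT 2, KO 1 or KO 2 and with scaling to the endothelial markers, and leaving out 1 library gave log2 fold changes between −0.86 (without WT 3) and −0.44 (without WT 2).

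In 2 of the 27 genes the groups did not overlap, against 11.1% of all genes tested, and both are described because they met the rule for naming genes. *Serpine2*, which encodes protease nexin-1, an inhibitor of thrombin and of both plasminogen activators, had 84.6, 77.4 and 83.3 FPKM in the WT libraries, against 70.7, 73.5 and 73.2 FPKM in the KO libraries, a log2 fold change of −0.17 (95% confidence interval −0.57 to 0.23; limma adjusted p = 0.921, exact permutation p = 0.1). *F2r*, which encodes the thrombin receptor PAR1, had 10.7, 8.19 and 7.99 FPKM in the WT libraries, against 11.2, 13.1 and 11.6 FPKM in the KO libraries, a log2 fold change of 0.39 (95% confidence interval −0.08 to 0.86; limma adjusted p = 0.841, exact permutation p = 0.1). Both genes reached the smallest exact p that 3 mice against 3 allow, and neither passed adjustment. The groups of *Serpine2* overlapped with quantile normalization and with both scalings to endothelial markers, and its log2 fold change was 0.06 with the scaling that includes *Cdh5*, while those of *F2r* lay apart under all these settings.

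By list, most of the plasma factors were not expressed at a testable level. Of the 15 coagulation factor and fibrinogen genes, 13 were under a mean of 1 FPKM, *F12* and *F13b* being listed at 0 in all libraries. *F13a1*, the A subunit of factor XIII, had means of 13.3 and 9.03 FPKM in WT and KO mice (log2 fold change −0.49, limma adjusted p = 0.841), and *F5*, the gene of factor V, had 3.63 and 5.54 FPKM (log2 fold change 0.50, or 0.34 without KO 3, limma adjusted p = 0.841). The 5 genes of the vitamin K cycle and of factor V and VIII export were all tested and had log2 fold changes between −0.03 and 0.19. Of these *Vkorc1*, the vitamin K epoxide reductase, had means of 40.4 and 39.1 FPKM in WT and KO mice, and *Mcfd2* had 33.6 and 41.0 FPKM. The log2 fold change of *Mcfd2* was 0.19, but 0.60 without KO 2 and −0.05 without KO 3.

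The most abundant of the other anticoagulants was *Anxa5*, whose product covers phosphatidylserine, with means of 131 FPKM (WT) and 116 FPKM (KO) (log2 fold change −0.19, limma adjusted p = 0.949). That value was −0.36 without WT 3 or KO 1, but 0.02 without WT 1 and 0.07 without KO 2. Of the 9 in that list 4 were tested, 3 with a log2 fold change under 0. In the fibrinolysis list 6 of 10 genes were tested and 5 had a log2 fold change under 0. *Anxa2* and *S100a10* together form a receptor for *Plat* and plasminogen, and had means of 193 and 142 FPKM in the WT group, against 152 and 121 FPKM in the KO group (log2 fold changes −0.38 and −0.24, limma adjusted p = 0.859 and 0.889). Without KO 2 these were −0.11 and −0.16, and without KO 1 that of *Anxa2* was −0.57.

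Of the 7 genes found for the release, cleavage and clearance of von Willebrand factor, 5 were tested, 2 with a log2 fold change under 0. *Rab27a*, a GTPase of Weibel-Palade body release, had means of 10.3 and 6.46 FPKM in WT and KO mice (log2 fold change −0.59, limma adjusted p = 0.841), and the scavenger receptor *Stab1* had 26.3 and 18.1 FPKM (log2 fold change −0.46, limma adjusted p = 0.841). The value of *Rab27a* was −0.37 without WT 3, and that of *Stab1* was −0.24 without WT 2 and −0.75 without WT 3. Both thrombin receptors tested had a log2 fold change above 0, the second being *F2rl1* (PAR2), with means of 3.41 and 4.31 FPKM. The value of *F2rl1* was 0.27, but −0.12 without WT 3, 0.009 without KO 1 and 0.71 without KO 2. The genes of the endothelial platelet inhibitors, *Ptgis* (prostacyclin synthase), *Nos3* and *Entpd1*, had log2 fold changes of −0.18, −0.15 and 0.15. Without WT 3 these were −0.39, −0.39 and −0.12. Without WT 1 that of *Ptgis* was 0.01 and that of *Entpd1* 0.39, and without KO 2 that of *Nos3* was 0.02.

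**Figure D3:**
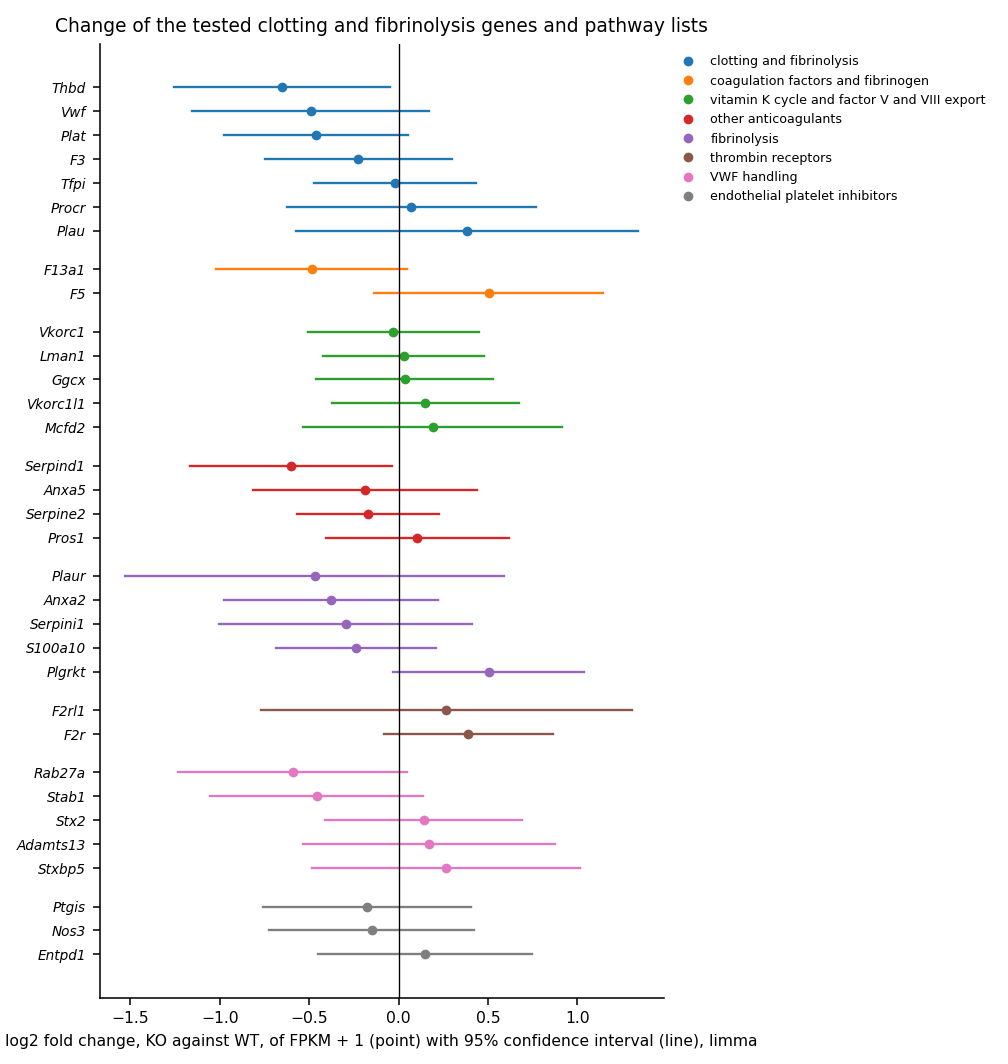
Log2 fold change of KO against WT on FPKM + 1 (points) with its 95% confidence interval from limma (lines) for the 7 tested clotting and fibrinolysis genes and 26 of the 27 tested genes of the 7 pathway lists, colored by list. The intervals of *Thbd* and *Serpind1* lie below 0, and those of the other genes drawn cross 0.

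The size of the differences in the 3 most abundant genes depended on which library was left out. Without WT 3, the log2 fold change was −0.93 for *Thbd*, −0.82 for *Vwf* and −0.60 for *Plat* in limma, whose unadjusted p was under 0.05 for all 3, as for 4.9% of all genes tested in that fit, and whose adjusted p was not under 0.89. In that fit the groups lay apart in 4 of the 7 genes (*Thbd*, *Vwf*, *Plat* and *Tfpi*), beside 20.8% of all genes tested. Without WT 1, the values were −0.45, −0.19 and −0.29. The unadjusted p of *Thbd* was above 0.05 without WT 1, WT 2, KO 1 or KO 3 (limma, 0.156, 0.115, 0.133 and 0.0637) and stayed under it without WT 3 or KO 2, and that of *Plat* was under it without KO 1 too (0.0356). *Plau* moved from 0.38 to 0.01 without KO 1 and to 0.75 without KO 3, and *Procr* changed sign, to −0.24, without KO 1.

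**Figure D4:**
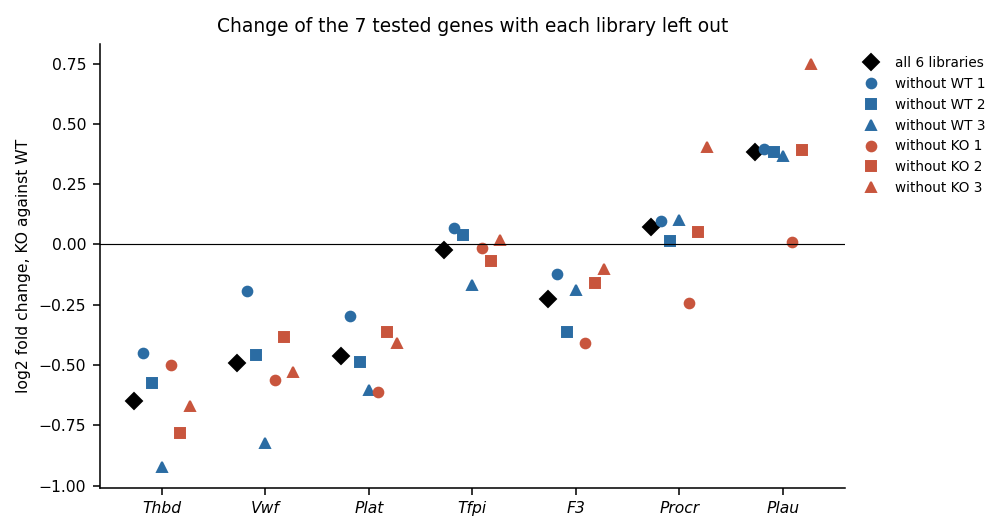
Log2 fold change of KO against WT (vertical axis) of each tested gene with all 6 libraries (black diamonds) and with each library left out (blue for a WT library, red for a KO library, with circle, square and triangle for libraries 1, 2 and 3). *Thbd*, *Vwf* and *Plat* stay under 0 in all 7 fits, between −0.93 and −0.19, while *Tfpi* and *Procr* lie on both sides of 0.

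WT 1 was the highest of the 6 libraries in 5 of the 7 genes (*Thbd*, *Vwf*, *Plat*, *Tfpi*, *F3*), as it was in 15.7% of all genes tested. WT 1 over WT 2 over WT 3 was the order of *Thbd*, *Vwf*, *Plat*, *Tfpi* and *Plau* in WT mice, and of 18.6% of all genes tested. Marker lists of several cell types also differed between libraries. The smooth muscle markers (4 of 4 tested, 0 with an unadjusted p under 0.05) summed to between 225 and 561 FPKM in WT libraries and between 257 and 754 in KO libraries. The arterial markers (5 of 5 tested, 0 with such a p) summed to 69.4 to 134 in WT and 79.7 to 131 in KO libraries, and the venous markers (4 of 4, 0) to 137 to 174 and 149 to 160. The pericyte markers (6 of 6, 1 with such a p) summed to 789 to 1285 and 833 to 935, and the fibroblast markers (4 of 4, 1) to 769 to 1092 and 463 to 693. The fibroblast sums were mostly *Col1a1* (577 to 812 FPKM in WT and 286 to 481 in KO libraries), and *Dcn*, *Lum* and *Pdgfra* overlapped. *Vtn* was the largest part of the pericyte sums, and *Cldn5* of the endothelial sums. The part of these cell types in the differences of the clotting genes was not tested.

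The neuron markers summed to between 212 and 347 FPKM in WT libraries and between 152 and 306 in KO libraries (5 of 5 tested, 1 with an unadjusted p under 0.05). The oligodendrocyte markers summed to 225 to 335 and 109 to 310 (4 of 4, 1), and the microglia markers to 132 to 170 and 101 to 134 (6 of 6, 1). The platelet markers, of interest because platelets carry von Willebrand factor and factor V, summed to 34.2 to 47.3 and 28.1 to 39.3 (5 of 6 tested, 0), with *Ppbp* listed at 0 in WT 2 and *Gp9* in WT 2 and KO 1. *Pf4* made up most of these platelet sums, with means of 32.3 and 22.7 FPKM in WT and KO mice (log2 fold change −0.49). Of the other platelet markers tested, *Itga2b* had a log2 fold change of −0.325, and *Ppbp*, *Gp1ba* and *Treml1* had 0.638, 0.345 and 0.358. The erythroid markers summed to 1765 to 2425 and 1209 to 2341 (4 of 5 found, all tested, 1 with such a p), of which *Hba-a2* and *Hbb-bs* are near-identical copies of other globin genes and are uncertain, *Hbb-bs* being listed at 0 in WT 1 and the 3 KO libraries.

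**Figure D5:**
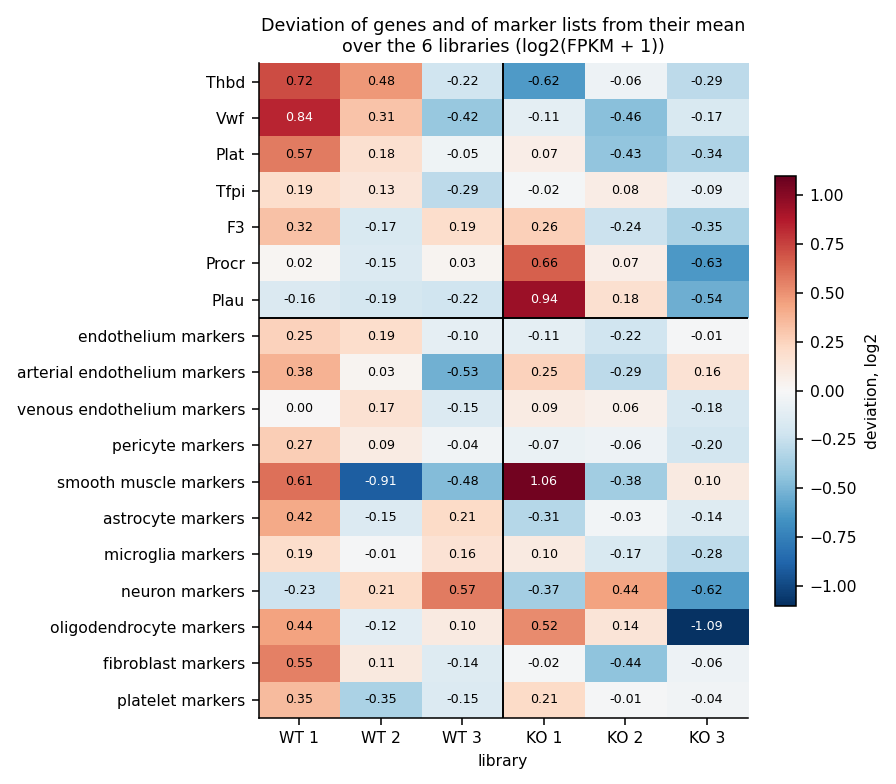
Deviation of each tested clotting and fibrinolysis gene, and of the mean of each marker list, from its own mean over the 6 libraries, in log2(FPKM + 1), with the libraries as columns and the erythroid list left out. WT 1 has 0.72, 0.84 and 0.57 for *Thbd*, *Vwf* and *Plat* and 0.25 for the endothelial markers, and KO 1 and KO 3 have 0.94 and −0.54 for *Plau*.

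Among the other genes whose mean reached 5 FPKM (9958, or 9959 for *Plau*), those whose values over the 6 libraries were most like each gene are named with their Pearson correlation, a description over 6 libraries that share depth and composition. *Vwf* was nearest to *Tes* and *Ndrg1* (0.992 and 0.991), *Thbd* to *Ranbp3l* and *Col4a6* (0.997 and 0.986), and *Plat* to *Olfml3* and *Gjb6* (0.988 and 0.986). *Tfpi* was nearest to *Colgalt1* and *Apoa2* (0.990 and 0.989), *F3* to *Prkrip1* and *Rab22a* (0.976 and 0.972), *Procr* to *B3galnt1* and *Ndel1* (0.985 and 0.960), and *Plau* to *Rgcc* and *Zcrb1* (0.998 and 0.962). Between 5 and 37 genes exceeded 0.95 for each gene. Within the group the closest pairs were *Procr* and *Plau* (0.93) and *Vwf* and *Plat* (0.89), followed by *Vwf* and *Thbd* (0.79), and the lowest value was that of *Thbd* and *Plau* (−0.46).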

How the data were processed

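Microvessel RNA of 3 WT and 3 KO mice was sequenced from directional libraries. The authors trimmed the reads, mapped them with TopHat (mm10 in the submitters' processing notes) and deposited FPKM values. No further normalization between libraries is given in the sources used here. Groups and replicate numbers were taken from the sample titles, and the column headers carry other numbers. On the scale log2(FPKM + 1), KO and WT were compared by limma (version 3.58.1, trended prior variance, R version 4.3.3) for 14247 genes whose mean reached 1 FPKM, with Benjamini-Hochberg adjustment. This scale understates changes of low genes. The script was tested on simulated data. Single genes also had an exact two-sided permutation test. SciPy 1.17.1 was used. Nothing in the labels says more of the mice, so p-values measure the spread between these libraries.

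The genes and lists were chosen with earlier results of these data known. Named were the 9 genes, pathway genes with an unadjusted p under 0.05, without overlap or among the 2 most abundant of a list, and the 2 nearest genes by correlation; *Entpd1*, the genes listed at 0 and single marker genes were named after their values were seen. The values of 1 pathway gene are not reported here, though the counts over lists include it. Positions and exons are from GENCODE M21 (GRCm38). Depth was estimated from the smallest values and annotated lengths, and the floor of 3 fragments takes in no error beyond counting. The alternatives were no filter, a mean of 5 FPKM, a pseudocount of 0.1, median scaling, quantile normalization, an untrended variance, a replicate block, a correction for GC content, each library left out and, chosen after seeing the data, scaling to endothelial markers.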

Additional observations from a re-analysis of the deposited data

How the results depend on the processing

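No alternative gave an adjusted p under 0.05 for any of the 7 genes tested (16 alternatives each, 15 for *Plau*, which a mean of 5 FPKM removes). The log2 fold changes of *Thbd*, *Vwf*, *Plat* and *Plau* kept their sign in all of them, but scaling to the 8 endothelial markers, chosen after seeing the data, brought the first 3 to −0.42, −0.27 and −0.24, and scaling without *Cdh5* to −0.54, −0.38 and −0.35. Of 111 values, 104 kept their sign and 7 did not. The number of these genes with an unadjusted limma p under 0.05 was 1 (*Thbd*, but *Plat* with quantile normalization), and moved to 0 with an untrended variance and with either scaling to endothelial markers, and to between 0 and 3 with each library left out, where 3.16% to 13.13% of all genes tested had such a p. The number without overlap was 0, and moved to 1 (*Plat*) with quantile normalization, beside 12% of all genes tested, and to between 0 and 4 with each library left out, beside 16.9% to 30.7%. The number of pathway genes with such a p was 1 (*Serpind1*), and moved to 3 with no filter (2 of them under a mean of 1 FPKM, beside 5.49% of all genes), to 3 with the GC correction (with *F13a1* and *Rab27a*, beside 4.67%), to 3 different genes with scaling to the 8 endothelial markers (*F2r*, *F5* and *Plgrkt*, all higher in KO mice, beside 8.94%), to 2 with quantile normalization (with *Anxa2*, beside 6.51%), to 0 with an untrended variance and with scaling without *Cdh5*, and to between 0 and 4 with each library left out. The log2 fold change of *F3* was 0.002 with scaling to the 8 endothelial markers. That of *Tfpi* was 0.205 with that scaling, 0.09 with scaling without *Cdh5*, and between −0.17 and 0.066 with each library left out. With each library left out, that of *Procr* lay between −0.24 and 0.40. The GC correction gave −0.205 for *Tfpi*, −0.299 for *F3*, −0.373 for *Vwf*, −0.635 for *Thbd* and −0.47 for *Plat*. The causes were not tested. The libraries with the same number in their titles did not deviate together (correlations of 0.04, 0.03 and 0.00 for numbers 1, 2 and 3), so these numbers, which differ from those in the column headers, were not taken to pair the libraries, and with the replicate block 1 of the 7 genes had an unadjusted p under 0.05 and 871 of all genes did, against 838. Across the 13726 genes with a GC content, the log2 fold change had a Spearman correlation of −0.35 with GC. Depth limits *Proc* and *F8*, which lie near the floor in some libraries.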

Other observations

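The 3 most abundant genes were also set against each of the 8 endothelial markers within each library, a comparison chosen after seeing the data. *Vwf* per *Pecam1* was 1.18, 1.06 and 0.790 in the WT libraries, in the order 1, 2, 3, against 0.672, 0.727 and 0.589 in the KO libraries. *Plat* per *Pecam1* was 0.933, 0.927 and 0.985 in the former and 0.731, 0.716 and 0.504 in the latter. For both genes every KO library lay below every WT library on this ratio, as did 4.76% of 13826 genes. *Thbd* per *Pecam1* overlapped. The KO libraries lay below the WT libraries for *Vwf* with 2 of the 8 markers (*Pecam1* and *Slco1a4*), for *Plat* with the same 2 and for *Thbd* with 1 (*Slco1a4*), where 5.27% of the genes lay below per *Slco1a4*. *Plat* per *Cdh5* lay above, at 1.18, 0.992 and 1.17 in KO mice against 0.978, 0.698 and 0.602 in WT mice, as did 73.1% of the 13826 genes, and *Cdh5* itself was lower in every KO library. With the remaining markers the groups overlapped. For all 3 genes the mean ratio was lower in KO than in WT libraries with every marker but *Cdh5*, and higher with *Cdh5*. Whether the groups overlapped thus depended on the marker chosen.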
